A study of Mus musculus with 11 samples.

Results

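The 8 genes described here encode enzymes of heme synthesis: Alas1, Alas2, Alad, Uros, Urod, Cpox, Ppox and Fech. They were chosen by mouse gene symbol, each matched to its Ensembl identifier in the count table, with earlier results of these data known. The table held 51912 genes, of which 15703 passed the filter on low counts, and all 8 enzymes passed it. RNA was sequenced from 11 samples of C57BL/6 mouse marrow that had been transduced with retroviruses, depleted of cells bearing lineage antigens and sorted for both vector fluorophores, GFP and RFP. The marrow carried a Rosa26 ERT2-Cre allele, whose recombinase is activated by 4-hydroxytamoxifen and switches on the inducible vector.

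The CSF3R-only group (n = 4) carried constitutive CSF3R T618I, a ligand-independent form of the receptor for granulocyte colony-stimulating factor, and an empty inducible vector. The CSF3R-first group (n = 3) carried constitutive CSF3R T618I and a Cre-inducible CEBPA V314VW, an insertion in the DNA-binding region of the myeloid transcription factor C/EBPα. The CEBPA-first group (n = 4) carried constitutive CEBPA V314VW and inducible CSF3R T618I. The cells of every group were grown for 48 hours with 4-hydroxytamoxifen and without added cytokines before RNA was taken, so the drug and the Cre allele were common to all 3 groups. The mutant proteins were human and expressed from retroviral vectors, and the study asked whether the order in which they arrive changes the resulting cells. The labels gave a letter to each replicate but did not say that replicates were separate animals or cultures, so the p-values measure only the spread between these samples, which may be technical.

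Heme is an iron-containing ring that carries oxygen in hemoglobin and electrons in cytochromes, and it is the active group of peroxidases such as the myeloperoxidase of granulocyte precursors. Its synthesis begins in the mitochondrion, passes through the cytosol and returns to the mitochondrion, where iron is inserted. The first step, catalysed by 5-aminolevulinate synthase, limits the rate of the pathway and exists in a form found in most cells (Alas1), which heme represses, and a form made in erythroid cells (Alas2), whose gene is a target of the erythroid factor GATA1.

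The stretches upstream of Alas2 and Cpox are printed because both held a GATAA match at the same distance from the RefSeq start and because only Alas2 passed a test between the groups; the difference between the genes was not tested. Sequences are from RefSeq on GRCm38.p6 and are given 5′ to 3′ on the strand of the gene, which is the plus strand for both, and capitals mark the GATAA match, which lies on the opposite strand and so reads TTATC. The Alas2 stretch is chrX:150547167-150547374 and the Cpox stretch is chr16:58669958-58670207. Both were limited to bases outside annotated exons of the gene.
Alas2: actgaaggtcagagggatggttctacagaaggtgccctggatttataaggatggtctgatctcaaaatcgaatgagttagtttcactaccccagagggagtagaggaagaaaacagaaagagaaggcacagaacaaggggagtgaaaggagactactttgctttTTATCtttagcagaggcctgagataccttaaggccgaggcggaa
Cpox: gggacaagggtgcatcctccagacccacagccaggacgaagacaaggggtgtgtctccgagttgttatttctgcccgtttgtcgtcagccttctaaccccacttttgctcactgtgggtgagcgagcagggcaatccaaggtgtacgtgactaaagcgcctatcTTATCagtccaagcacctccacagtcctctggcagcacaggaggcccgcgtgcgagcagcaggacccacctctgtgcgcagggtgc

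Promoter windows were found for 7 of the 8 enzymes, 10 windows in all, and 250 bases upstream of each start were searched on both strands. The GATAA match began 86 bases upstream of the RefSeq start in both Alas2 and Cpox, and one window of Uros held a match at 68 bases, whereas GATAA occurred in 22.6% of 32851 mouse promoter windows of the same length. The Cpox start matched 0 GENCODE transcripts and the Alas2 start matched 1, so the equal distance holds for the RefSeq starts only. CACCC, the core of the box bound by the erythroid factor KLF1, occurred 3 times in the Alas2 window, in adjoining copies closer to the start than the printed stretch and without overlap with the GATAA match, and 4 times in the Cpox window. Both Alas1 windows and 1 Alad window held it once, so that 5 of the 10 windows had a match, close to the 52.0% of all windows. TTGCNNAA, a common C/EBP core, occurred in none of the 10 windows and in 9.56% of all windows. TGACNNNGC, searched for NF-E2 and BACH-MAF, also occurred in none, against 10.2% of all windows. TTCNNNGAA, searched for STAT, occurred once, 171 bases upstream of 1 Alas1 start, against 7.02% of all windows. CCAAT occurred 4 times in the Ppox window and also in both Alad windows and the Urod window, against 33.8% of all windows. In 1 of its windows, Alas1 held 2 overlapping matches of GCATGCGC, the core bound by the respiratory factor NRF1, which occurred in 2.26% of all windows. They are 1 stretch read on opposite strands and lie downstream of the other Alas1 start, whose window held 0. A match describes letters only, and its absence concerns only these windows.

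The libraries held 47905747 to 72268346 counts. Levels are given as counts scaled to library size (CPM) after TMM normalization, which scales each library to the bulk of its genes, and levels of different genes are ranked only per kilobase of annotated exon (RPKM), whereas sums over genes and shares of a sum are in counts or CPM unless RPKM is named. A floor of 3 counts corresponded to 0.0383 to 0.0648 CPM, and it covers counting error only. Each enzyme in each library lay above it. The CSF3R-first samples stood far apart from each other in erythroid markers: the summed level of 16 such genes was 290 CPM in replicate A, 569 CPM in replicate B and 1001 CPM in replicate C. The same sum ran from 558 to 895 CPM in CSF3R-only and from 206 to 282 CPM in CEBPA-first. In bulk RNA, fewer cells of a type and less RNA per cell cannot be told apart.

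Compared with CSF3R-only, CEBPA-first cells had lower RNA of both forms of 5-aminolevulinate synthase and of 4 later enzymes, and no enzyme was higher. Alas2 was 32.1-fold lower and Alas1 2.98-fold lower, whereas Uros, Urod, Ppox and Fech were 1.25-fold to 1.44-fold lower. Alad and Cpox did not pass the test. By the quasi-likelihood test of edgeR, with p-values adjusted after Benjamini and Hochberg, 6 of 8 enzymes (75%) were lower at an adjusted p under 0.05, against 36.6% of all genes tested, and 0 were higher, against 35.4%. Requiring also a change of at least 1 on the log2 scale left 2 of 8 (25%), Alas1 and Alas2, against 27% of all genes, which is close to the background. In 6 of 8 enzymes all samples of one group lay on one side of the other, against 68.7% of all genes. The median log2 fold change was -0.42 over the 8 enzymes and -0.0045 over all genes tested.

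**Figure D1:**
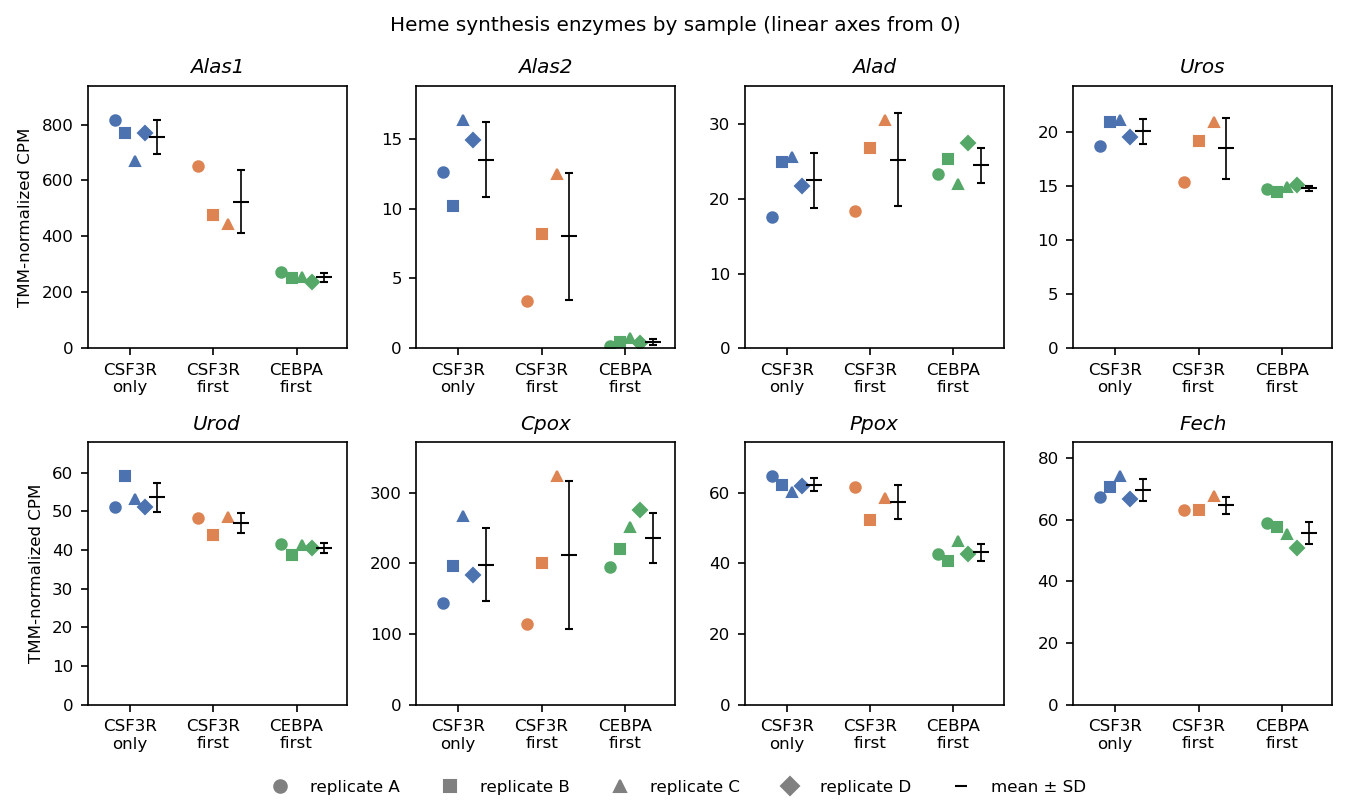
Level of each heme synthesis enzyme in TMM-normalized CPM (vertical axis, linear from 0) in the CSF3R-only, CSF3R-first and CEBPA-first groups (horizontal axis), with 1 marker per sample shaped by replicate letter and a black bar for the mean ± SD. Alas1 and Alas2 are lowest in the 4 CEBPA-first samples with no overlap, Cpox and Alad overlap in all groups, and the 3 CSF3R-first samples are widely spaced for Alas2 and Cpox.

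Alas1 (ENSMUSG00000032786), which makes 5-aminolevulinic acid in most cells, lies at chr9:106233455-106248654 on the minus strand of GRCm38. It measured 815, 768, 669 and 768 CPM in CSF3R-only replicates A to D, 652, 478 and 443 CPM in CSF3R-first replicates A to C, and 273, 250, 256 and 235 CPM in CEBPA-first replicates A to D. The 3 groups did not overlap, with every CSF3R-first sample below every CSF3R-only sample and above every CEBPA-first sample. The log2 fold change of CEBPA-first against CSF3R-only was -1.57 (SE 0.11, edgeR quasi-likelihood adjusted p = 8.2e-08), with a 95% interval of -1.82 to -1.33. CSF3R-first differed from CSF3R-only by -0.53 (SE 0.12, adjusted p = 0.0041) and CEBPA-first from CSF3R-first by -1.05 (SE 0.12, adjusted p = 2.3e-05) on the log2 scale. On a scale where the CSF3R-only mean log2 CPM is 0 and the CEBPA-first mean is 1, the CSF3R-first mean lay at 0.346, with single samples at 0.132, 0.418 and 0.488. The exons of Alas1 overlapped those of 4930500F10Rik, which measured 0.244 ± 0.0698 CPM in CSF3R-only and 0.283 ± 0.0683 CPM in CEBPA-first (SD, n = 4).

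Marker lists of other blood cells are set beside Alas1, and most but not all of them were lower where Alas1 was lower. The summed level of 12 neutrophil maturation genes was 27833 to 34452 CPM in CSF3R-only samples, 15011 to 26269 CPM in CSF3R-first and 6466 to 8593 CPM in CEBPA-first. Against CSF3R-only, 12 of 12 were lower in CEBPA-first, where 36.6% of all genes were, and 11 of 12 in CSF3R-first, where 21.1% were. Of 9 megakaryocyte markers, 9 were lower in each of the 3 comparisons. The share of all genes lower was 36.6% and 21.1% in CEBPA-first and CSF3R-first against CSF3R-only, and 24.3% in CEBPA-first against CSF3R-first. The megakaryocyte sum was 1171 to 1542 CPM in CSF3R-only samples, 406 to 657 CPM in CSF3R-first and 127 to 172 CPM in CEBPA-first. Of 10 monocyte and macrophage markers, 9 were lower (90%) and 1 higher (10%) in CEBPA-first against CSF3R-only, against 36.6% and 35.4% of all genes. Their sum went from 2899 to 3690 CPM to 903 to 1272 CPM, with 1608 to 2783 CPM in CSF3R-first. Of 9 mast cell and basophil markers, 5 were lower (55.6%) and 1 higher (11.1%) in CEBPA-first against CSF3R-only, where 36.6% and 35.4% of all genes were. In CSF3R-first against CSF3R-only, 8 were lower (88.9%) and 0 higher, against 21.1% and 21.6% of all genes. In CEBPA-first against CSF3R-first, 3 were lower (33.3%) and 4 higher (44.4%), against 24.3% and 24% of all genes. The mast cell and basophil sum was 2185 to 3430 CPM in CSF3R-only samples, 1401 to 1745 CPM in CSF3R-first and 1585 to 2039 CPM in CEBPA-first. No marker of these 4 lists was at 0 counts throughout a group. The summed level of 5 promyelocyte genes moved the other way, from 2558 to 3108 CPM in CSF3R-only to 6044 to 6453 CPM in CEBPA-first. The part of these cell populations in the level of Alas1 was not tested.

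Alas2 (ENSMUSG00000025270), the erythroid form of the enzyme, lies at chrX:150547375-150570638 on the plus strand. Its raw counts were 585, 509, 810 and 941 in CSF3R-only samples, 167, 405 and 790 in CSF3R-first samples, and 11, 25, 37 and 30 in CEBPA-first, which correspond to 12.6, 10.2, 16.3 and 14.9 CPM, to 3.39, 8.15 and 12.5 CPM, and to 0.188, 0.426, 0.710 and 0.383 CPM. All 4 CEBPA-first samples lay below all other samples, whereas CSF3R-first replicate C fell among the CSF3R-only samples and replicates A and B below them. CEBPA-first was lower than CSF3R-only by -5.00 on the log2 scale (SE 0.42, 95% interval -5.90 to -4.10, edgeR quasi-likelihood adjusted p = 2.9e-07) and lower than CSF3R-first by -4.25 (SE 0.43, adjusted p = 9.2e-06). CSF3R-first against CSF3R-only gave -0.75 (SE 0.35, 95% interval -1.50 to -0.00092) with an adjusted p of 0.099, and the value was -1.21 (adjusted p = 0.021) without CSF3R-first replicate C and -0.39 (0.22) without CSF3R-first replicate A. The adjusted p of this comparison ranged from 0.014 to 0.22 over the alternatives tried. The exons of Alas2 overlapped those of Apex2, a DNA repair endonuclease, which was higher in CEBPA-first than in CSF3R-only (15.8 ± 1.55 against 11.02 ± 0.185 CPM, SD, n = 4 each, log2 fold change 0.52, edgeR adjusted p = 0.00012), opposite to Alas2.

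Erythroid markers moved with Alas2. Of the 16 markers, 15 were lower (93.8%) and 0 higher in CEBPA-first against CSF3R-only, against 36.6% and 35.4% of all genes (median log2 fold change -2.65). Between CSF3R-first and CSF3R-only 0 passed in either direction (median -0.36), where 21.1% of all genes were lower and 21.6% higher. In CEBPA-first against CSF3R-first, 14 were lower (87.5%) and 0 higher (median -2.43), against 24.3% and 24% of all genes. No marker of the list was at 0 counts in every sample of a group. Carbonic anhydrase gene Car2 made up 39.8% to 43.7% of the marker sum in CSF3R-only and 72.2% to 75.7% in CEBPA-first, and without it the sum was 422 ± 79.2 CPM in CSF3R-only, 333 ± 193 CPM in CSF3R-first and 62.2 ± 8.82 CPM in CEBPA-first (SD, n = 4, 3 and 4). The adult beta-globin gene Hbb-bs measured 59.5 ± 7.34, 44.2 ± 21.8 and 1.84 ± 0.624 CPM in the same order, with 54 to 171 counts in each CEBPA-first library. The part of erythroid cells in the level of Alas2 was not tested.

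The balance of the 2 forms was examined as the percentage of Alas2 in the counts of Alas1 plus Alas2. The share was 1.53%, 1.31%, 2.38% and 1.90% in CSF3R-only samples, 0.517%, 1.68% and 2.74% in CSF3R-first samples, and 0.0689%, 0.170%, 0.276% and 0.162% in CEBPA-first. Every CEBPA-first sample was below every other sample, while CSF3R-first spanned the CSF3R-only range at both ends. The exact (Clopper-Pearson) 95% interval of the highest CEBPA-first share was 0.195% to 0.381% and that of the lowest CSF3R-first share, in replicate A, was 0.442% to 0.601%, which covers counting error only. The mean share differed by -1.61 percentage points between CEBPA-first and CSF3R-only and by -1.48 between CEBPA-first and CSF3R-first (2-sided exact permutation test, p = 0.0286 for each, the smallest these groups allow, adjusted over 3 comparisons to 0.0429). CSF3R-first against CSF3R-only differed by -0.134 percentage points (exact permutation p = 0.886), and the sign turned to 0.43 without CSF3R-first replicate A and to 0.066 without CSF3R-only replicate C. Counts of the longer transcript weigh more in this share, which per kilobase of exon was 3.30% to 5.90% in the CSF3R-only libraries and 0.177% to 0.707% in the CEBPA-first libraries. Per kilobase of exon, Alas1 exceeded Alas2 by 15.9-fold to 29.3-fold in the CSF3R-only libraries, 13.8-fold to 74.9-fold in the CSF3R-first libraries and 140-fold to 564-fold in CEBPA-first.

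The cytosolic steps that follow had smaller differences. Alad (ENSMUSG00000028393, chr4:62509169-62519918, minus strand) encodes the enzyme that condenses 5-aminolevulinic acid to porphobilinogen. It measured 17.6, 25.0, 25.7 and 21.7 CPM in CSF3R-only, 18.4, 26.8 and 30.6 CPM in CSF3R-first and 23.3, 25.3, 22.0 and 27.5 CPM in CEBPA-first, and the groups overlapped. The log2 fold change of CEBPA-first against CSF3R-only was 0.12 with a 95% interval of -0.20 to 0.45 (edgeR adjusted p = 0.47), and that of CSF3R-first against CSF3R-only was 0.17 (adjusted p = 0.43), which became 0.35 (adjusted p = 0.046) without CSF3R-first replicate A.

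Uros (ENSMUSG00000030979, chr7:133686243-133710072, minus strand), whose product closes the porphyrin ring, measured 18.7, 20.9, 21.0 and 19.5 CPM in CSF3R-only, 15.4, 19.1 and 20.9 CPM in CSF3R-first and 14.5 to 15.04 CPM in the 4 CEBPA-first samples. The CEBPA-first samples lay within a narrow band below all others, and CSF3R-first replicate A stood just above that band. The difference between CEBPA-first and CSF3R-only was -0.44 on the log2 scale (SE 0.09, edgeR adjusted p = 0.00055). Urod (ENSMUSG00000028684, chr4:116989965-116994413, minus strand) encodes the decarboxylase that trims the side chains of the ring. Its levels were 51.2, 59.0, 53.3 and 51.1 CPM in CSF3R-only, 48.3, 43.9 and 48.6 CPM in CSF3R-first and 41.6, 38.7, 41.3 and 40.5 CPM in CEBPA-first, so that the 3 groups formed steps without overlap. CEBPA-first was lower than CSF3R-only by -0.40 on the log2 scale (SE 0.06, edgeR adjusted p = 6e-05).

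The last steps take place in the mitochondrion. Cpox (ENSMUSG00000022742, chr16:58670292-58717636, plus strand), the oxidase that makes protoporphyrinogen, measured 144, 196, 268 and 184 CPM in CSF3R-only, 114, 200 and 323 CPM in CSF3R-first and 195, 221, 251 and 276 CPM in CEBPA-first. Its groups overlapped and its lowest and highest values of all samples were both in CSF3R-first, in replicates A and C. Its coefficient of variation was 26.03%, 49.4% and 14.98% in the CSF3R-only, the CSF3R-first and the CEBPA-first samples, against 4.94%, 4.16% and 6.39% for Fech. The log2 fold change of CEBPA-first against CSF3R-only was 0.25 with a 95% interval of -0.30 to 0.81 (edgeR adjusted p = 0.39), so changes inside that interval could not be resolved. The exons of Cpox overlapped those of Gpr15, a receptor gene, with 96.9% of its exon bases in no other gene, and Gpr15 fell from 18.7 ± 1.36 to 5.399 ± 0.287 CPM (SD, n = 4 each, log2 fold change -1.79, adjusted p = 4.1e-08).

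Ppox (ENSMUSG00000062729, chr1:171275990-171281186, minus strand) encodes the oxidase that yields protoporphyrin. It measured 64.7, 62.4, 60.2 and 62.0 CPM in CSF3R-only, 61.6, 52.3 and 58.4 CPM in CSF3R-first and 42.7, 40.7, 46.3 and 42.8 CPM in CEBPA-first. The CEBPA-first samples were below all others, and the 2 remaining groups overlapped. The difference between CEBPA-first and CSF3R-only was -0.53 on the log2 scale (SE 0.06, edgeR adjusted p = 6e-06). Ppox shares exon sequence with its neighbour B4galt3, a galactosyltransferase gene, so that 82.5% of its exon bases lay in no other gene, and B4galt3 moved by a like amount (-0.50, adjusted p = 8.8e-05). Whether the counting used strand is not given in the sources used here, so reads of the overlap cannot be told apart.

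Fech (ENSMUSG00000024588, chr18:64452914-64490251, minus strand) encodes ferrochelatase, which inserts iron into protoporphyrin. Its levels were 67.3, 70.7, 74.1 and 66.6 CPM in CSF3R-only, 63.2, 63.0 and 67.8 CPM in CSF3R-first and 58.8, 57.7, 55.3 and 50.8 CPM in CEBPA-first. The CEBPA-first samples lay below all others, and CSF3R-first replicate C overlapped CSF3R-only. The difference between CEBPA-first and CSF3R-only was the smallest of the 6 that passed, -0.32 on the log2 scale (SE 0.06, edgeR adjusted p = 0.00034).

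Between CSF3R-first and CSF3R-only, which have the same constitutive CSF3R T618I, fewer enzymes passed. Alas1 and Urod were lower, 2 of 8 (25%) against 21.1% of all genes, and 0 of 8 were higher against 21.6%. No enzyme reached a log2 change of 1 with an adjusted p under 0.05, against 6.65% of all genes (Alas2 did without CSF3R-first replicate C), and 2 of 8 had no overlap between groups, against 42.1%. Urod differed by -0.19 (SE 0.07, edgeR adjusted p = 0.035), and its adjusted p ranged from 0.02 to 0.26 over the alternatives. The count of enzymes that passed in either direction fell to 1 without CSF3R-only replicate B, without CSF3R-only replicate C or without CSF3R-first replicate B, and rose to 3 without CSF3R-first replicate A, where Alad passed as higher (0.35, adjusted p = 0.046). Uros, Ppox and Fech gave -0.12, -0.12 and -0.11 (adjusted p = 0.35, 0.18 and 0.21), with 95% intervals of -0.32 to 0.09, -0.26 to 0.03 and -0.25 to 0.04. Cpox gave 0.10 with the wider interval of -0.50 to 0.70 (adjusted p = 0.79). The median over the 8 enzymes was -0.12, and over all genes -0.022.

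The comparison of CEBPA-first with CSF3R-first holds the oncogenes constant and differs in their order and in which of them is constitutive, and it shares its CEBPA-first samples and its CSF3R-first samples with the other comparisons. Here 6 of 8 enzymes (75%) were lower, against 24.3% of all genes, and 0 were higher, against 24%. With the added requirement of a log2 change of at least 1, Alas1 and Alas2 remained, 2 of 8 (25%) against 12.8% of all genes, but Alas1 fell short of that size without CSF3R-first replicate A (-0.85) and with library size as the only scaling (-0.99), which left 1. In addition, 6 of 8 enzymes had no overlap between groups, against 52.2%. Beyond Alas1 and Alas2, Ppox differed by -0.41 (edgeR adjusted p = 4e-04), Uros by -0.32 (0.013), Fech by -0.22 (0.016) and Urod by -0.21 (0.019) on the log2 scale. Alad gave -0.04 (95% interval -0.39 to 0.31, adjusted p = 0.85) and Cpox 0.15 (95% interval -0.45 to 0.75, adjusted p = 0.69). Without CSF3R-first replicate C the count of lower enzymes was 3, because Uros, Urod and Fech no longer passed (adjusted p = 0.079, 0.058 and 0.067). Urod also lost its call without CEBPA-first replicate B (0.054) and without CSF3R-first replicate A (0.067), and without the filter on low counts both Urod (0.11) and Fech (0.08) did. With library size as the only scaling, 3 enzymes passed. In contrast, Alas1, Alas2 and Ppox still passed with any 1 sample left out. The median over the 8 enzymes was -0.27, and over all genes 0.00052.

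**Figure D2:**
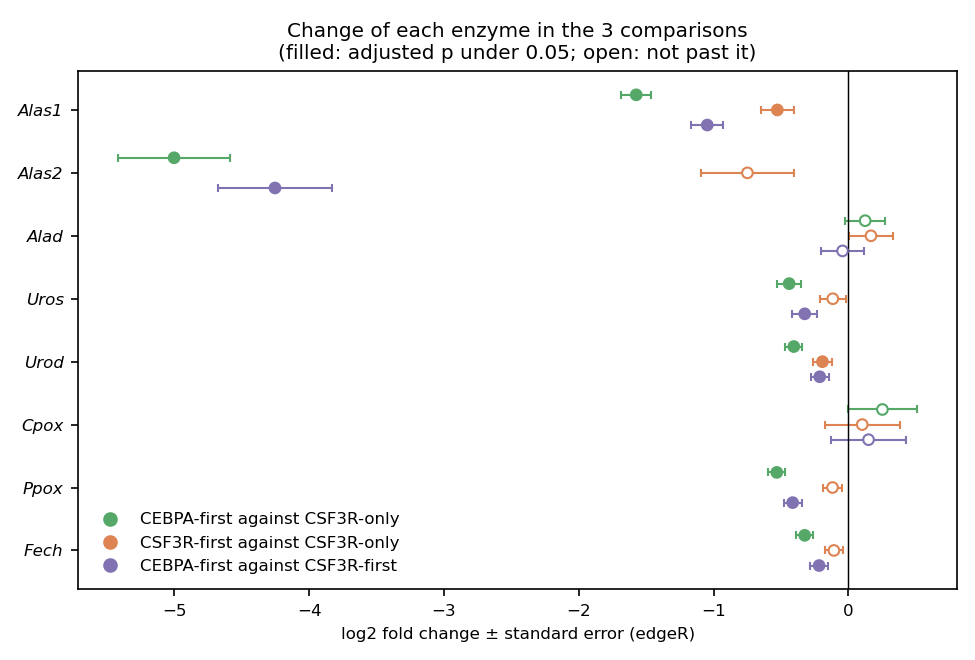
Log2 fold change (horizontal axis) with its standard error for each enzyme in the 3 comparisons, from edgeR's quasi-likelihood fit, with filled points past an adjusted p of 0.05 and open points not past it. Alas2 reaches -5.00 and Alas1 -1.57 in CEBPA-first against CSF3R-only, and the other passing enzymes lie between -0.53 and -0.32 in that comparison.

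Per kilobase of exon, Alas1 was the most abundant of the 8 transcripts in CSF3R-only, at 122 ± 9.99 RPKM (SD, n = 4), followed by Cpox at 29.7 ± 7.73, Urod at 20.7 ± 1.44, Ppox at 13.8 ± 0.41 and Alad at 12.0 ± 1.96 RPKM. Alas2 at 5.62 ± 1.12, Uros at 5.60 ± 0.32 and Fech at 5.03 ± 0.249 RPKM came last, and the long annotated exons of Fech, 13838 bases in union, lower its value. The pairs Cpox and Urod, and Ppox and Alad, as well as the last 3 genes, overlapped between samples. In CEBPA-first, Alas1 at 41.1 ± 2.51 RPKM and Cpox at 35.4 ± 5.30 RPKM overlapped, and Alas2 was last at 0.178 ± 0.0896 RPKM. Alas1 made up 57.0% ± 4.80 of the summed RPKM of the 8 enzymes in CSF3R-only samples, 48.8% ± 10.8 in CSF3R-first samples and 33.4% ± 2.86 in CEBPA-first (SD, n = 4, 3 and 4).

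The summed CPM of the 8 enzymes was 1187 to 1212 in CSF3R-only samples, 891 to 1005 in CSF3R-first samples and 649 to 689 in CEBPA-first, with means of 1195 ± 11.8, 957 ± 59.4 and 669 ± 22.5 (SD). The groups did not overlap. Without Alas1 the sums were 440 ± 59.5, 433 ± 120 and 415 ± 34.1 CPM, and the groups overlapped.

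Within groups the enzymes fell into opposite patterns. In CSF3R-first, replicate A was lowest for Alas2, Alad, Uros and Cpox and highest for Alas1 and Ppox, while replicate C was highest for Alas2, Alad, Uros and Cpox and lowest for Alas1. Replicate A was also lowest for Cpox and for the erythroid marker sum, and highest for Alas1, in each of the other groups. Over the deviations of log2 CPM from the group means of all 11 samples, Alas1 had a correlation of -0.95 with Cpox, -0.916 with Uros and -0.90 with Alad, and Cpox had 0.929 with Uros and 0.89 with Alad. Against the log2 sum of the 16 erythroid markers, the same deviations gave 0.983 for Cpox, 0.948 for Uros, 0.866 for Alad, 0.779 for Alas2 and -0.943 for Alas1, but 0.256 for Fech, 0.0732 for Urod and -0.292 for Ppox. In the 8 samples without CSF3R-first, a choice made after seeing the data, the values were 0.986 for Cpox, 0.794 for Uros, 0.746 for Alad, 0.479 for Alas2 and -0.914 for Alas1. These are descriptions of points that share libraries and normalization. Cpox increased with the marker sum inside each group, although its mean was 236 ± 35.3 CPM in CEBPA-first, where the marker sum was lowest, and 198 ± 51.5 CPM in CSF3R-only (SD, n = 4 each). This order was not particular to erythroid markers. The summed mast cell and basophil markers ranked the samples inside each group as Cpox did, with 1401, 1559 and 1745 CPM in CSF3R-first replicates A to C. The summed neutrophil maturation genes did not, at 26269, 15011 and 18084 CPM in the same replicates.

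**Figure D3:**
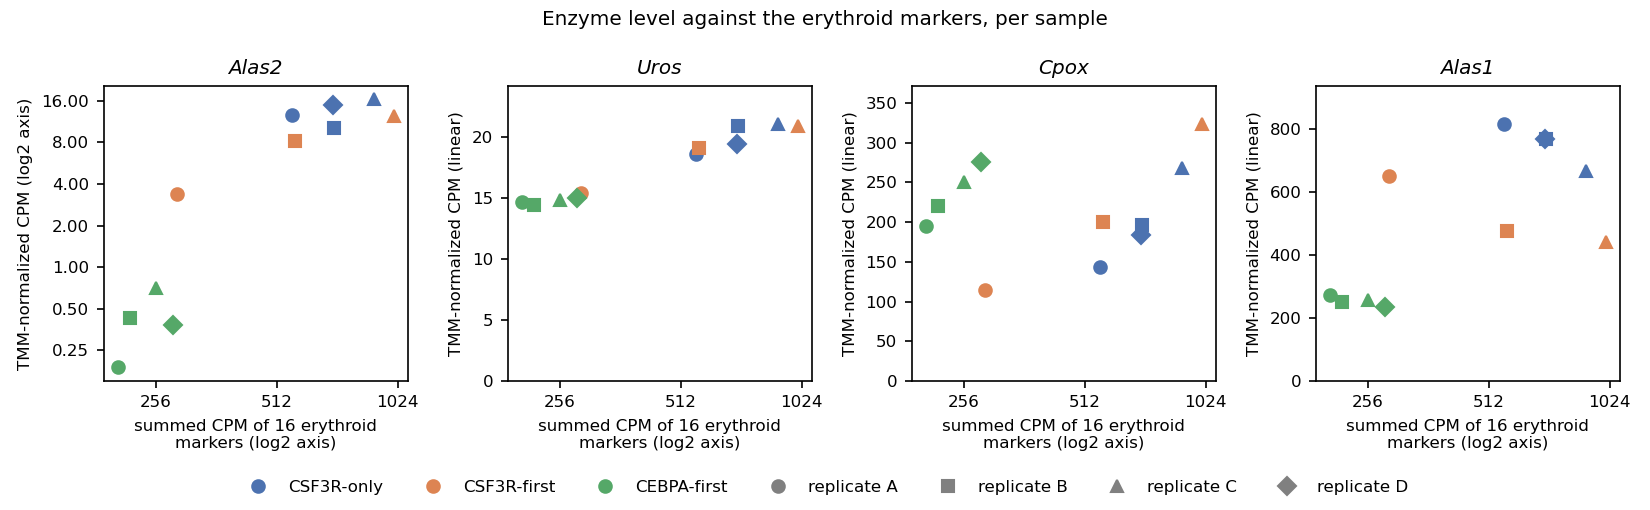
Level of Alas2 (log2 axis), Uros, Cpox and Alas1 (linear axes from 0) in TMM-normalized CPM against the summed CPM of 16 erythroid markers (log2 axis), 1 point per sample, coloured by group and shaped by replicate letter. Cpox rises with the marker sum inside each group but the CEBPA-first points sit apart at 195 to 276 CPM, Alas2 is lowest where the marker sum is lowest, and Alas1 tends to be lower where the sum is higher inside each group.

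The genes with patterns most like those of Alas1, Alas2 and Fech were sought by Pearson correlation of log2 CPM over the 11 samples among genes with a mean log2 CPM of at least 1. For Alas2 they were the alpha-globin genes Hba-a2 (r = 0.997) and Hba-a1 (0.994), a near-identical pair between which reads can be split, and Slc4a1 (0.994), the anion exchanger of red cells. Slc4a1 measured 36.6, 24.5 and 1.30 CPM on average in the CSF3R-only, the CSF3R-first and the CEBPA-first samples. For Alas1 they were Cd302 (0.999), Rab20 (0.999) and Gba2 (0.998), and Cd302 measured 94.7, 42.7 and 6.23 CPM in the same order. For Fech they were Ptk2 (0.959), Nedd4l (0.954) and Tmem140 (0.951). The differences between group means contribute to all of these values.

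Genes that serve the pathway from outside are given for CEBPA-first against CSF3R-only, where 35.4% of all genes tested were higher and 36.6% lower. Of 14 genes of mitochondrial transport and enzyme partners, 6 were higher (42.9%) and 4 lower (28.6%), near those shares (median log2 fold change 0.04). Slc25a38, the mitochondrial glycine carrier that feeds the first step, measured 53.7 ± 2.84 CPM in CSF3R-only, 39.5 ± 1.80 CPM in CSF3R-first and 27.5 ± 0.122 CPM in CEBPA-first (SD, n = 4, 3 and 4), and fell by 0.96 on the log2 scale (edgeR adjusted p = 1.4e-08). The iron carrier Slc25a37 fell by 0.49 (adjusted p = 6.2e-05) and Fam210b by 1.10 (3.2e-07), whereas the protease Clpp rose by 0.84 (1.6e-06). The 3 genes that turn heme into heme A or attach it to cytochrome c all rose, Cox10 by 1.06, Hccs by 0.60 and Cox15 by 0.41 (edgeR adjusted p = 8.1e-07, 4.6e-06 and 5e-05).

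Of 12 iron-sulfur assembly genes, 8 were higher (66.7%) and 1 lower (8.33%) (median 0.41), with the chaperone Hspa9 at 1.30 and Fdxr at 0.81, the scaffold Iscu at -0.44 and Isca1 at -0.06, which did not pass (edgeR adjusted p = 4.8e-07, 1.1e-06, 0.00013 and 0.51). Of 12 genes of iron uptake, export and storage, 6 were higher (50%) and 3 lower (25%) (median 0.19). The iron exporter Slc40a1 went from 167 ± 21.1 to 8.18 ± 0.594 CPM (log2 fold change -4.35, adjusted p = 2.8e-10) and the ferritin heavy chain Fth1 differed by -2.09 (7.3e-08). The transferrin receptor Tfrc rose by 0.74 (0.0003) and Ncoa4, the receptor for ferritin breakdown, also by 0.74 (1.2e-07).

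Of 8 genes of heme export and breakdown, 6 were lower (75%) and 0 higher (median -0.31), against the same 36.6% and 35.4% of all genes, and in CEBPA-first against CSF3R-first 3 were lower (37.5%, median -0.10) against 24.3%. Heme oxygenase gene Hmox1, which opens the ring, measured 349 ± 32.8, 244 ± 76.0 and 93.9 ± 25.4 CPM in the 3 groups (log2 fold change -1.89, edgeR adjusted p = 2e-06), and Blvrb, a biliverdin reductase, differed by -2.55 (1.9e-09). Slc48a1, a heme transporter, at -0.11 and Flvcr2 at 0.31 did not pass (adjusted p = 0.064 and 0.52). Of 8 tested heme sensors and other regulators, 4 were higher (50%) and 4 lower (50%). Bach1, the heme-binding repressor, measured 38.3 ± 1.18, 24.5 ± 5.33 and 17.3 ± 1.10 CPM (-1.14, adjusted p = 6.9e-07), Nfe2l2 gave -0.78 (1e-06), Bach2 0.91 (0.00069) and Hnrnpa1 1.18 (1.9e-06).

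Among 13 tested heme proteins, 8 were lower (61.5%) and 4 higher (30.8%) (median -0.74). Nos2, the inducible nitric oxide synthase, differed by -5.48, while myeloperoxidase Mpo rose by 0.88 and cytochrome c gene Cycs by 0.98 (edgeR adjusted p = 5.2e-08, 1.5e-06 and 9.7e-07). The eosinophil peroxidase Epx varied widely, at 5.91 ± 4.32 CPM in CSF3R-only and 0.395 ± 0.298 CPM in CEBPA-first (SD, n = 4 each), with 1 count in the lowest CEBPA-first library. Its log2 fold change was -3.92 (SE 0.68, edgeR adjusted p = 0.00017) and became -3.27 (0.00056) without CSF3R-only replicate D. Of 9 erythroid regulators, 5 were lower (55.6%) and 2 higher (22.2%) (median -0.73). Gata1 measured 65.3 ± 14.2, 41.9 ± 16.2 and 33.9 ± 6.25 CPM (-0.94 in CEBPA-first against CSF3R-only, edgeR adjusted p = 0.0021), Klf1 gave -1.08 (0.0032) and Gata2 -0.35 (0.053, not past the threshold, but 0.019, 0.023 and 0.022 without CSF3R-only replicate A, CEBPA-first replicate D or CSF3R-first replicate A), whereas Lmo2 rose by 1.08 (7e-08) and Ldb1 by 0.21 (0.0015). Between CEBPA-first and CSF3R-first, where Alas2 differed by -4.25, Gata1 gave -0.31 (adjusted p = 0.32) and Klf1 -0.90 (0.023). Without CSF3R-first replicate A, Gata1 gave -0.58 (0.023). Klf1 no longer passed without CSF3R-first replicate C (-0.44, adjusted p = 0.19), CEBPA-first replicate A (0.056) or CEBPA-first replicate B (0.058).

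**Figure D4:**
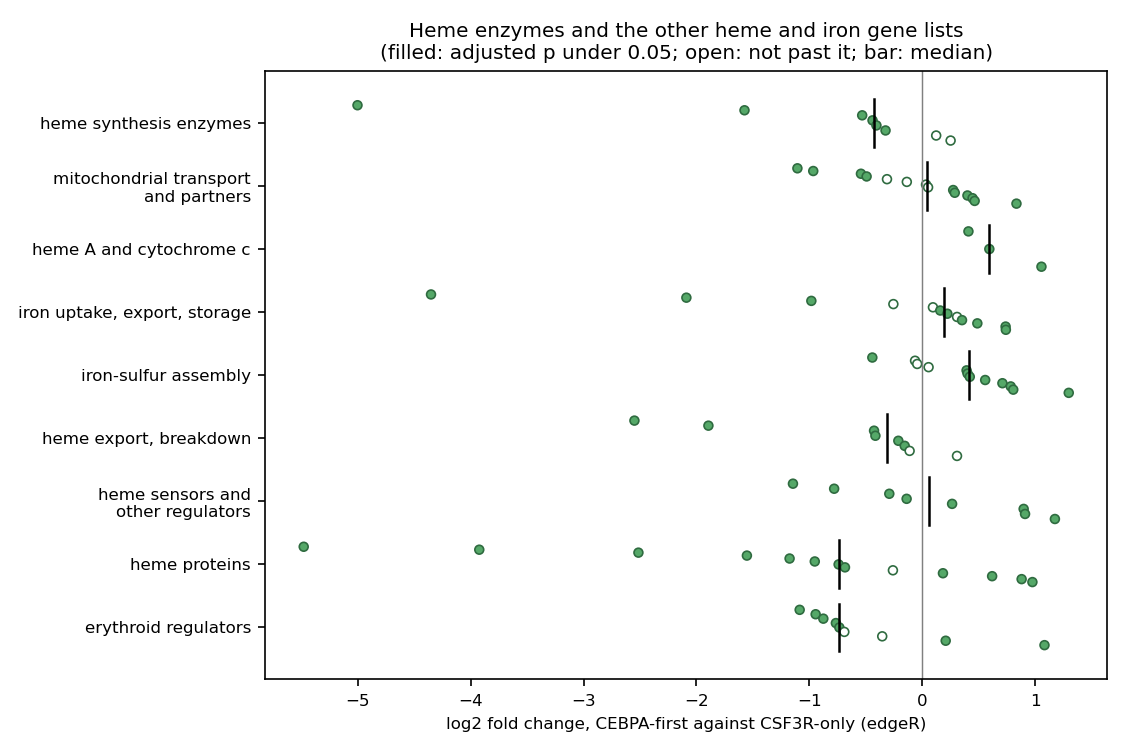
Log2 fold change of CEBPA-first against CSF3R-only (horizontal axis, edgeR) for every tested gene of the heme enzymes and of the other heme and iron lists (rows), with filled points past an adjusted p of 0.05, open points not past it and a black bar at the median of each list. The enzymes have a median of -0.42 with Alas2 far to the left, heme export and breakdown lies at -0.31, and iron-sulfur assembly lies at 0.41.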

How the data were processed

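The authors trimmed 100-base single reads from a low-input library kit (Trimmomatic), aligned what was left with STAR and deposited raw counts per gene, not normalized; mm10 and DESeq2 are named in the submitters' processing notes. The counting tool, annotation and strand setting are not given in the sources used here. Identifiers without a symbol (279) held at most 0.0279% of a library's counts.

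Counts of all 11 samples were filtered with filterByExpr, scaled by TMM (factors 0.936 to 1.08) and tested in 1 fit of the 3 groups without covariates by edgeR's quasi-likelihood test (R 4.3.3, edgeR 4.0.16, limma 3.58.1), with p-values adjusted over 15703 genes by the Benjamini-Hochberg method. SEs were derived from the F statistics (size of the log2 change over the root of F), and 95% intervals used edgeR's total degrees of freedom. Log2 CPM used a prior count of 2. Depth ran from 47905747 to 72268346 counts, and no replicates were duplicates (chi-square per degree of freedom at least 9.24). DESeq2 1.42.0, other scalings, filters, a replicate block and each sample left out in turn were the alternatives. For named genes outside the members, leaving out samples was chosen after seeing the data. The fit was tested on simulated data. Gene models were GENCODE M21 on GRCm38, searched with BLAST 2.17.0, and figures used matplotlib 3.10.9.

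The members and lists were chosen with earlier results of these data known. Named genes were the members, up to 4 genes of each other pathway list with the most extreme log2 fold changes in CEBPA-first against CSF3R-only, and Gata1, Gata2, Klf1, Hmox1, Bach1, Tfrc, Slc25a37, Slc25a38 and Hbb-bs; genes overlapping a member in exons were added after their values were seen. One step of the pathway and 1 gene that the rule names are not reported here.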

Additional observations from a re-analysis of the deposited data

How the results depend on the processing

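In CEBPA-first against CSF3R-only, 6 enzymes passed under every alternative, including DESeq2 and each sample left out. Of 456 enzyme log2 fold changes under alternatives, 429 kept their direction and side of the threshold, 17 lost the call, 3 gained one and 7 changed sign. With library size as the only scaling, which moved the median of all genes to 0.129 in CEBPA-first against CSF3R-only, 1 enzyme passed in CSF3R-first against CSF3R-only and 3 passed in CEBPA-first against CSF3R-first, and the summed level was 1137 CPM in CSF3R-only and 698 CPM in CEBPA-first. Without a filter on low counts, or with only the compared groups in the fit, 1 passed in CSF3R-first against CSF3R-only. With 1 sample left out, the counts ranged from 1 to 3 in CSF3R-first against CSF3R-only and from 3 to 6 in CEBPA-first against CSF3R-first. The cause of these moves was not tested.

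The values that changed sign in CSF3R-first against CSF3R-only were Cpox at -0.02 (without CSF3R-only replicate A) and -0.31 (without CSF3R-first replicate C) and Uros at 0.00020 (without CSF3R-first replicate A). In CEBPA-first against CSF3R-first they were Cpox at -0.15 (without CSF3R-first replicate A) and Alad at 0.0061, 0.0045 and 0.11 (without CEBPA-first replicate C, CSF3R-first replicate B and CSF3R-first replicate C). With 1 sample left out, these ranged from -0.19 to 0.00020 (Uros) and -0.31 to 0.40 (Cpox) in the first comparison and from -0.22 to 0.11 (Alad) and -0.15 to 0.58 (Cpox) in the second. The difference in the Alas2 share ranged from -0.683 to 0.43 percentage points in CSF3R-first against CSF3R-only, changing sign to 0.066 without CSF3R-only replicate C and to 0.43 without CSF3R-first replicate A, and from -2.04 to -0.928 in CEBPA-first against CSF3R-first, where fewer samples allow no exact permutation p below 0.0667 or 0.10.

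Samples with the same letter had deviations correlated at -0.107 to 0.362 over 10 pairs, 7 of them over 0.1 and 7 of them best with their own letter. Because not every pair was over 0.1 and the labels tie the letters to no shared animal or day, the letters were not taken to pair the samples, although most pairs leaned that way. A replicate block left 6, 3 and 6 enzymes passing in CEBPA-first against CSF3R-only, CSF3R-first against CSF3R-only and CEBPA-first against CSF3R-first, adding Alas2 in CSF3R-first against CSF3R-only (-0.86, edgeR adjusted p = 0.014). Alas2 rested on 11 to 37 counts in the CEBPA-first libraries, which limits the precision of its level there.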
